A study of Mus musculus with 60 samples.

Results

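PGC-1 coactivators, PPAR receptors and estrogen-related receptors (ERRs) form the core of the transcriptional circuit that adjusts fuel use and mitochondrial content to exercise. The 10 genes described here were chosen by name from the gene symbols that the deposited peak lists assign to each peak: *Ppargc1a*, *Ppargc1b* and *Pprc1* (the PGC-1 coactivators), *Ppara*, *Ppard* and *Pparg* (the PPAR receptors), *Esrra*, *Esrrb* and *Esrrg* (the ERR receptors) and *Fndc5*, the precursor of irisin. The choice was made with peaks of these data already known, so their presence in the lists is a description. Together they held 382 of 256375 peaks in 12 lists, 59 of 155961 for H4K8ac and 323 of 100414 for H3K27me3. All 10 genes had an H4K8ac peak in at least 1 list, and 6 of the 10 had an H3K27me3 peak. Of the 16994 genes with any peak, 20.1% were in no H4K8ac list and 56.5% in no H3K27me3 list.

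The lists came from CUT&RUN-seq, in which an antibody directs the cutting and release of DNA at a histone modification, on hippocampal nuclei of male Emx1-NuTRAP mice. In these mice Emx1-Cre switches on a nuclear and a ribosomal tag in cells of the Emx1 lineage, chiefly excitatory neurons, and the tagged nuclei were pulled down with magnetic beads. Every group carried both alleles. Between postnatal days 21 and 41 the exercised mice could use a running wheel, and sedentary mice stayed in standard cages. Nuclei were taken from both hippocampi in a simultaneous isolation with RNA (SIT; 4 samples per mark and condition by the labels) or separately from the left or the right hippocampus (3 samples each), and these are called arms here.

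Each list is one pooled set of peak positions for 1 mark, condition and arm, with no height and no sample of origin, so there is no spread between replicates and no test, and the read depth behind a list is not in the files. The lists differed in length, from 12168 to 38136 peaks for H4K8ac and from 9899 to 25693 for H3K27me3. The shortest H4K8ac lists were both exercised separate lists (12168 and 13715 peaks), and the shortest H3K27me3 list was the exercised right list. Some exercised H4K8ac libraries, most of them from the separate isolations, were left out by the authors for a high false discovery rate, and the study also removed outlying samples of both conditions, so any list, SIT included, may rest on fewer libraries than the labels give. At promoters, markers of excitatory neurons had H4K8ac for 2 to 5 of 7 genes per list and H3K27me3 for 1 of 7. Interneuron markers had H4K8ac for 0 of 6 and H3K27me3 for 5 of 6, and endothelial markers for 0 and 2 of 3. H4K8ac was at 1 to 3 of 5 astrocyte markers, 1 to 2 of 5 oligodendrocyte-lineage markers and 1 to 2 of 4 microglial markers, and H3K27me3 was at 2 of 5, 1 to 2 of 5 and 0 to 1 of 4 of them, and the part of such cells in the peaks of the 10 genes was not tested.

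PGC-1 coactivators have no DNA-binding domain that selects genes. They join receptors already on DNA, chiefly ERRs and PPARs with their RXR partners, and recruit acetyltransferases, which raises transcription of genes for fatty acid oxidation and respiration. Acetylation such as H4K8ac is found at active promoters and enhancers. H3K27me3 is laid down by Polycomb repressive complex 2, often in wide domains over developmental regulators that a cell type keeps silent. In neurons *Ppargc1a* and the ERRs are linked to high energy demand and *Fndc5* to exercise.

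To show what the lists marked, the 250 bases before annotated starts are given from RefSeq GRCm38.p6, 5′ to 3′ on the plus strand, with capitals for each CG dinucleotide. They were taken before the earliest annotated mRNA start of each group, so that no mRNA exon is included. The first 3 compare the starts of *Esrrg*, which lay in opposite marks, and the last 2 are a start under H3K27me3 and a start under H4K8ac. The windows are chr1:187608260-187608509, chr1:187651508-187651757 and chr1:187997570-187997819 for *Esrrg*, chr15:85735168-85735417 for *Ppara* and chr4:129136620-129136869 for *Fndc5*.
Esrrg upstream starts: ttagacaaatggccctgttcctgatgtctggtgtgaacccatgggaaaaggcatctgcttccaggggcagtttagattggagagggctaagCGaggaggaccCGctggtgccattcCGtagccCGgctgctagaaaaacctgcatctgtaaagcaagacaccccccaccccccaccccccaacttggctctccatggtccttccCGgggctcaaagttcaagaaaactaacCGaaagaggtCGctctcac
Esrrg internal start: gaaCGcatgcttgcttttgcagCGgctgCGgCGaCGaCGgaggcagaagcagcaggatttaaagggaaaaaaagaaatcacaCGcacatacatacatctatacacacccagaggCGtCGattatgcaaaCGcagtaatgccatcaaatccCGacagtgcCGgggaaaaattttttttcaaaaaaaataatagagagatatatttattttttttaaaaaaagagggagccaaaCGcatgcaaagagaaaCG
Esrrg downstream start: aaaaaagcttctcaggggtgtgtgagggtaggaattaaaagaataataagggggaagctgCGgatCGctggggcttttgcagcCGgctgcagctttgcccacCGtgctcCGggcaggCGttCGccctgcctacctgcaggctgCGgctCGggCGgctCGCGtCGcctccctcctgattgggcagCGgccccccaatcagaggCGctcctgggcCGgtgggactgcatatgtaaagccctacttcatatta
Ppara start: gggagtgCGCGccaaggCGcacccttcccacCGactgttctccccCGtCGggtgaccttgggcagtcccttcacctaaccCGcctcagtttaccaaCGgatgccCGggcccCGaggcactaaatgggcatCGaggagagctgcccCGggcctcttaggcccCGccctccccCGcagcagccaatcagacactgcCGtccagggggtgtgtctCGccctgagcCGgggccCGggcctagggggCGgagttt
Fndc5 start: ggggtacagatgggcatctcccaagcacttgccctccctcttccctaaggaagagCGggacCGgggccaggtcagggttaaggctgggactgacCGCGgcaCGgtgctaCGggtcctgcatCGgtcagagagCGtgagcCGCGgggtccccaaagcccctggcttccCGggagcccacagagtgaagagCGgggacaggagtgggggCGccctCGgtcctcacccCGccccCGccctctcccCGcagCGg

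The upstream and downstream *Esrrg* windows lay wholly inside an H3K27me3 peak in 6 of 6 lists and in no H4K8ac peak. The internal window lay wholly inside an H4K8ac peak in 6 of 6 lists and in no H3K27me3 peak. The *Ppara* window was inside H3K27me3 in 5 of 6 lists and in no H4K8ac list, and the *Fndc5* window was touched by H4K8ac in 6 lists, wholly covered in 4, and by H3K27me3 in none. CG counts did not separate the marks. The upstream, internal and downstream *Esrrg* windows held 7, 14 and 16 CG dinucleotides and the *Ppara* and *Fndc5* windows 19 and 18, against a median of 6 over the 250 bases before 32851 RefSeq starts. The internal *Esrrg* window had the lowest GC content of the 5, 41.6%, and that of *Fndc5* the highest, 70.0%; the median over all starts was 52.4%.

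RefSeq promoters (250 bases before and 50 after a start) were found for 9 of the 10 genes, 15 in all. These were searched on both strands for AAGGTCA, the core of the site that ERRs bind as monomers, and for a direct repeat of AGGTCA with 1 base between, the PPAR and RXR site; the second contains part of the first. Neither was found in the 15 promoters, while 4.72% and 0.0396% of all RefSeq promoters held them. AAGGTCA occurred once in the *Ppara* window printed above, which begins farther upstream. TGACGTCA, the full CREB site, was in 0 of 15 and 1.79% of all. GGGCGG, the core of the Sp1 site, was in 8 of 15 and 35.7% of all, with 5 matches at *Fndc5*. A match of letters is not evidence of binding, and its absence covers these windows alone.

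**Figure D1:**
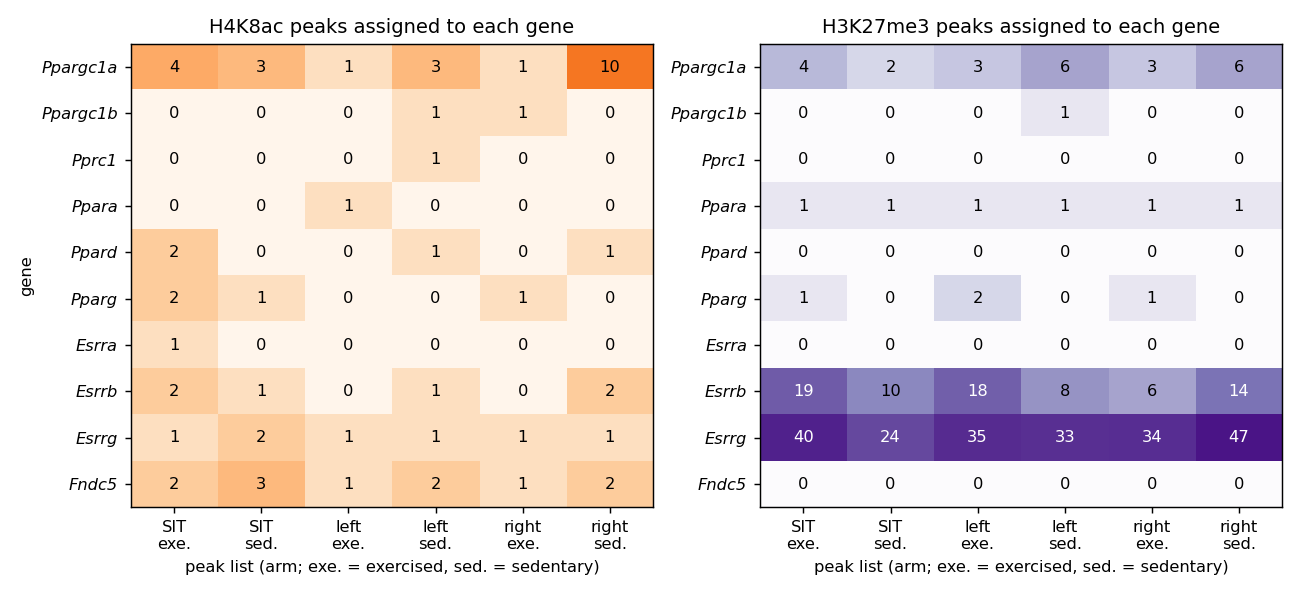
Number of peaks assigned to each of the 10 genes (rows) in each peak list (columns, by arm and condition), for H4K8ac on the left and H3K27me3 on the right; darker cells hold more peaks. *Esrrg* and *Esrrb* held 213 and 75 of the 323 H3K27me3 peaks, and *Ppargc1a* held 22 of the 59 H4K8ac peaks.

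*Esrrg* encodes ERRγ, an orphan receptor of tissues with high oxidative demand, brain included. Its H3K27me3 peaks numbered 40 and 24 in the exercised and sedentary SIT lists, 35 and 33 in the left lists, and 34 and 47 in the right lists. The bases they covered came to 327 and 208 kb in SIT, 245 and 177 kb on the left, and 105 and 296 kb on the right. The exercised list was higher in SIT and on the left, and the sedentary list on the right, so conditions overlapped. Ranked by the summed width of assigned H3K27me3 peaks, *Esrrg* held places 24 and 24 in the exercised and sedentary SIT lists, of 6472 and 3830 genes, 24 and 31 on the left, of 5205 and 4668, and 29 and 21 on the right, of 3506 and 6018. The gene is 606 kb long (chr1:187608791-188214885, plus strand, ENSMUSG00000026610), and this rank is not per length.

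The H3K27me3 peaks of *Esrrg* joined into 36 regions when peaks that shared a base were chained across lists, spread over 587 kb. Of these, 12 were present in all 6 lists and 7 in a single list. Presence here needs 1 shared base. When 50% reciprocal overlap with the peak of the shortest list was asked for, the H3K27me3 regions of the 10 genes in all 6 lists fell from 17 to 1. The widest, chr1:187785716-187842648, was 56.9 kb and lay in the gene body. In it the exercised and sedentary lists covered 56507 and 49710 bp in SIT, 47692 and 45736 bp on the left, and 32621 and 53130 bp on the right. Its longest run shared by all 6 lists was 9932 bp. For 1 of the 12 regions, chr1:187869897-187890175, the lists were linked through a chain of peaks and no base was common to all 6. No region was present in 3 lists of one condition and absent from all 3 of the other.

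Both groups of starts that GENCODE gives for *Esrrg* were under H3K27me3 in every list. The upstream starts (187608791 and 187609029, with a RefSeq start at 187609006) lay in chr1:187596847-187615162 and the downstream start at 187997827, 389 kb farther on, in chr1:187988950-188012242. The annotation class of the peaks was promoter for 15 of 213, intron for 112 and distal intergenic for 79. Counted by position whatever the symbol, H3K27me3 covered 43.3 and 29.3% of the gene and its flanks in SIT (exercised and sedentary), 34.3 and 24.2% on the left, and 15.2 and 44.0% on the right. The order of the conditions in each arm was the same as by symbol.

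Between these domains lay the only place in *Esrrg* with H4K8ac in every list. The peak spanned chr1:187650291-187652646 in exercised SIT (2356 bp), chr1:187650996-187652952 in sedentary SIT (1957 bp), chr1:187650429-187651851 in exercised left (1423 bp), chr1:187650409-187652866 in sedentary left (2458 bp), chr1:187650207-187652334 in exercised right (2128 bp) and chr1:187650868-187652669 in sedentary right (1802 bp). All 6 lists shared 856 bp, chr1:187650996-187651851. The width did not order the conditions, being larger in the exercised list for SIT and right and in the sedentary list for left. A second peak, chr1:187661933-187662951, was in the sedentary SIT list alone.

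The deposited annotation placed the shared peak in exon 1 of an antisense transcript of Gm36388 (ENSMUST00000191663.1), about 40.5 to 41.3 kb from the assigned *Esrrg* start, and so gave it no promoter class. RefSeq, however, has 2 *Esrrg* starts there. The start at 187651758, 43.0 kb inside the GENCODE gene, was within the peak in 6 of 6 lists, and that at 187652241 in 5 of 6, missing in exercised left. Neither start was under H3K27me3 in any list. Transcripts in opposite directions begin within the peak, and the lists do not tell which of them the mark belongs to.

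The stretch free of H3K27me3 around this peak was 118 and 122 kb in the exercised and sedentary SIT lists, 120 and 153 kb in the left lists, and 92.2 and 91.1 kb in the right lists. Its left edge was close in all lists, 35.0 to 38.3 kb before the H4K8ac region. Its right edge varied more, from 51.2 to 115 kb after the region. The stretch free in all 6 lists together was 89.0 kb. Between conditions the stretch was close in SIT and right and longer in the sedentary list on the left.

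**Figure D2:**
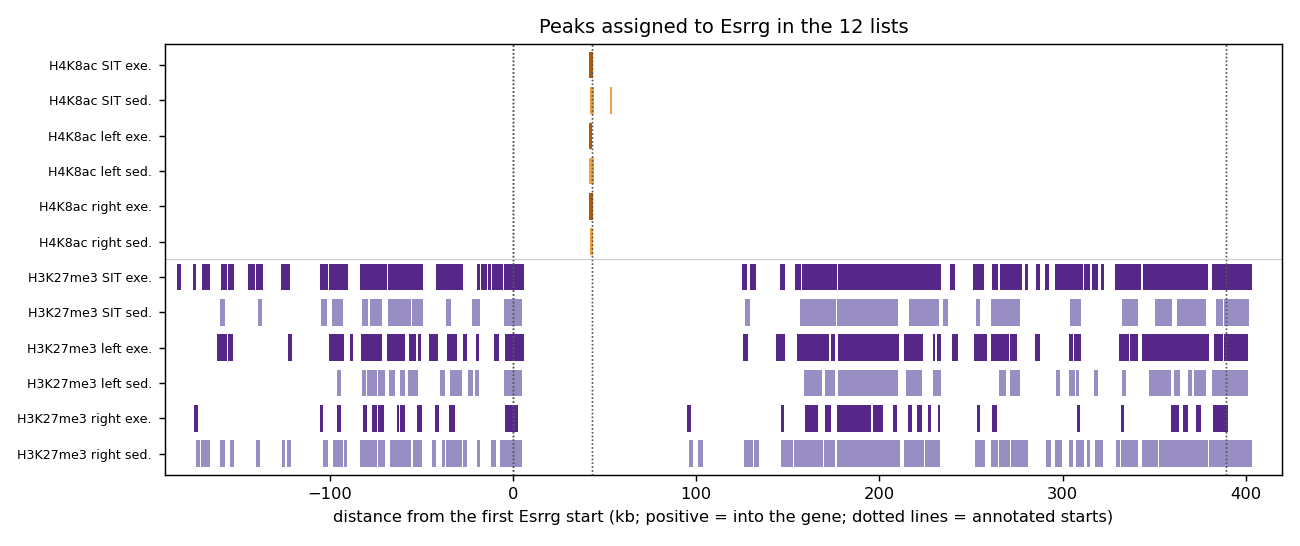
Peaks assigned to *Esrrg* by distance in kb from its first annotated start (x axis, positive into the gene), one row per list; orange rows are H4K8ac, purple rows H3K27me3, dark for exercised and light for sedentary, and dotted lines mark annotated starts. In all 6 H4K8ac lists a peak of 1423 to 2458 bp sits at the internal start, and the stretch around it that is free of H3K27me3 in every list is 89.0 kb long.

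*Esrrb* encodes ERRβ, known from pluripotent cells and the inner ear. It had 19 and 10 H3K27me3 peaks in the exercised and sedentary SIT lists, 18 and 8 in the left lists and 6 and 14 in the right lists. They covered 88.2 and 49.0 kb, 67.8 and 29.0 kb, and 17.4 and 50.2 kb. The exercised list was above the sedentary list in SIT and left and below it in right, as for *Esrrg*. The peaks formed 21 regions, 2 of them in all 6 lists and 6 in 5 lists. One of the 2, chr12:86417365-86436763, held the internal starts at 86421644 and 86421883 in every list; the other, chr12:86543057-86551776, lay beyond the 3′ end of the gene (chr12:86361117-86521628, plus strand). The first start, at 86361117, was inside H3K27me3 in the sedentary right list alone and within 3 kb of it in 3 lists.

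H4K8ac at *Esrrb* was not within 3 kb of a start in any list. A peak about 30 kb before the first start (chr12:86330098-86331906 over all lists) was 1004 bp in exercised SIT, 905 bp in sedentary SIT, 1148 bp in sedentary left and 966 bp in sedentary right. It was absent from both exercised separate lists, which are the shortest of the mark. In exercised SIT the nearest H3K27me3 peak of the same list ended 411 bp before it, and in sedentary SIT the nearest was 30841 bp away. A second peak in intron 1 was present in exercised SIT (2347 bp) and sedentary right (1149 bp).

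*Esrra* encodes ERRα, the ERR most tied to mitochondrial genes, and it differed from its paralogs in having no H3K27me3 peak assigned to it. Its only H4K8ac peak, chr19:6921047-6923035, was 1989 bp, was in exercised SIT and held all annotated starts. In the same list an H3K27me3 peak of 3553 bp at the promoter of its neighbour *Kcnk4* began 1664 bp away.

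*Ppara* encodes the receptor that drives fatty acid oxidation. Its start lay in H3K27me3 in all arms, with 1 peak per list and no other. The peak measured 4838 and 4388 bp in the exercised and sedentary SIT lists, 4334 and 3566 bp in the left lists and 1636 and 5588 bp in the right lists. The widest and the narrowest were both from the right hippocampus. The region, chr15:85733164-85738844, shared 1636 bp between all lists, from 85735803, which is the whole of the exercised right peak. That peak began after the starts at 85735564 and 85735776, which the other 5 lists covered, and took in the start at 85736131.

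H4K8ac was listed at *Ppara* once, as a 1919 bp intronic peak in exercised left, 37583 bp from the nearest H3K27me3 peak of that list. No H4K8ac peak came within 3 kb of a *Ppara* start in any list.

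*Pparg* encodes the receptor of fat cell formation and the target of the glitazones. It was the one gene of the 10 with H3K27me3 in 3 of 3 exercised lists and 0 of 3 sedentary lists, a pattern held by 0.189% of the 7399 genes in any H3K27me3 list. The pattern was known when the gene was included, so it is a description. The peaks were not at one place. Exercised SIT had chr6:115361049-115362475 (1427 bp) and exercised right chr6:115361089-115363559 (2471 bp), both over the RefSeq start at 115361144. Exercised left had none there, but one 14.4 kb upstream of its assigned start (2949 bp) and one in intron 7 (2017 bp). None of the 4 peaks was among the widest 50% of its list, so at that setting *Pparg* was in 0 of 6 lists. After trimming the longer list of an arm by width until both lists were equally long, 2 exercised and 0 sedentary lists held one.

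Exercised SIT also had an H4K8ac peak over the same start, chr6:115360464-115362123 (1660 bp). It overlapped the H3K27me3 peak of that list by 1075 bp. This was the only H4K8ac peak of the 59 that shared a base with H3K27me3 in the matching list. The lists pool nuclei, so whether both marks were on the same nuclei cannot be told. Other H4K8ac peaks were a 1907 bp intronic peak in exercised SIT and a peak about 47 kb upstream in sedentary SIT (1847 bp) and exercised right (1123 bp).

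*Ppard* encodes the PPAR that is expressed in most tissues and favours fat use in muscle. It had no H3K27me3 peak in any list and no peak of either mark within 3 kb of a start. Its 4 H4K8ac peaks were of 2 kinds. In sedentary left (1196 bp) and exercised SIT (1182 bp) a peak lay in an exon of the neighbouring gene upstream, near 28225489 to 28226876 on chr17. In sedentary right (2160 bp) and exercised SIT (1309 bp) a peak lay in intron 2, at different places.

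**Figure D3:**
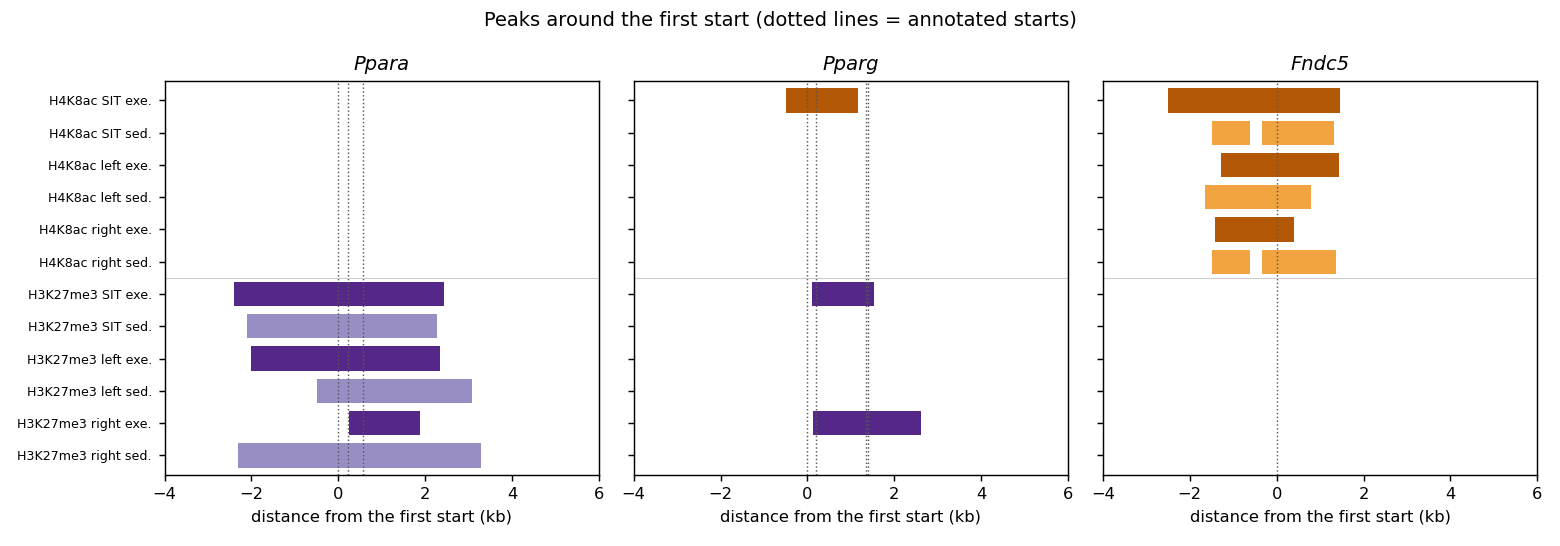
Peaks of *Ppara*, *Pparg* and *Fndc5* around their first annotated start (x axis, distance in kb; dotted lines are annotated starts), one row per list with H4K8ac in orange above and H3K27me3 in purple below, dark for exercised and light for sedentary. *Ppara* has H3K27me3 in 6 lists, *Fndc5* has H4K8ac in 6 lists, and *Pparg* has H3K27me3 here in 2 exercised lists, 1 of which also has H4K8ac.

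*Ppargc1a* encodes PGC-1α, the coactivator that endurance exercise induces in muscle. It was listed for both marks in all 6 lists, yet neither mark came within 3 kb of an annotated start (51567726, 51553922 and 51553891 on chr5, minus strand) in any list. It had 4 and 3 H4K8ac peaks in the exercised and sedentary SIT lists, 1 and 3 in the left lists and 1 and 10 in the right lists. The 10 peaks of sedentary right covered 17.6 kb, against 7.03 kb in exercised SIT, the next highest. Of the 22 peaks 21 were distal intergenic, and 1, in sedentary SIT, was in intron 1.

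Most lay in one band upstream. In chr5:51750384-51816214, 183 to 248 kb before the assigned start, 18 of the 22 peaks were found: 4 and 2 in exercised and sedentary SIT, 1 and 3 in left, and 1 and 7 in right. Every list had at least 1, but no chained region was in all 6. The most repeated were chr5:51775280-51781248 (1 exercised and 3 sedentary lists), chr5:51784180-51787697 (2 and 2) and chr5:51810660-51813511 (2 and 1). The first of these and the next were chains of peaks with no base common to all their lists, and in the last 325 bp were shared. GENCODE has no gene in the band, and no peak of another symbol and no H3K27me3 peak fell in it. The symbol here means the nearest start, and the lists do not show which gene these peaks act on. By position within the gene and 3 kb either side, H4K8ac was present in 1 of 6 lists and H3K27me3 in 0.

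H3K27me3 lay on the other side of the gene, beyond its 3′ end. There were 4 and 2 peaks in SIT (exercised and sedentary), 3 and 6 in left and 3 and 6 in right, all distal intergenic and 128 to 321 kb from the assigned start. Adjacent regions, chr5:51340254-51348468 and chr5:51349247-51357692, were in all 6 lists. The first shared 1811 bp between lists and the second no base common to all 6.

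**Figure D4:**
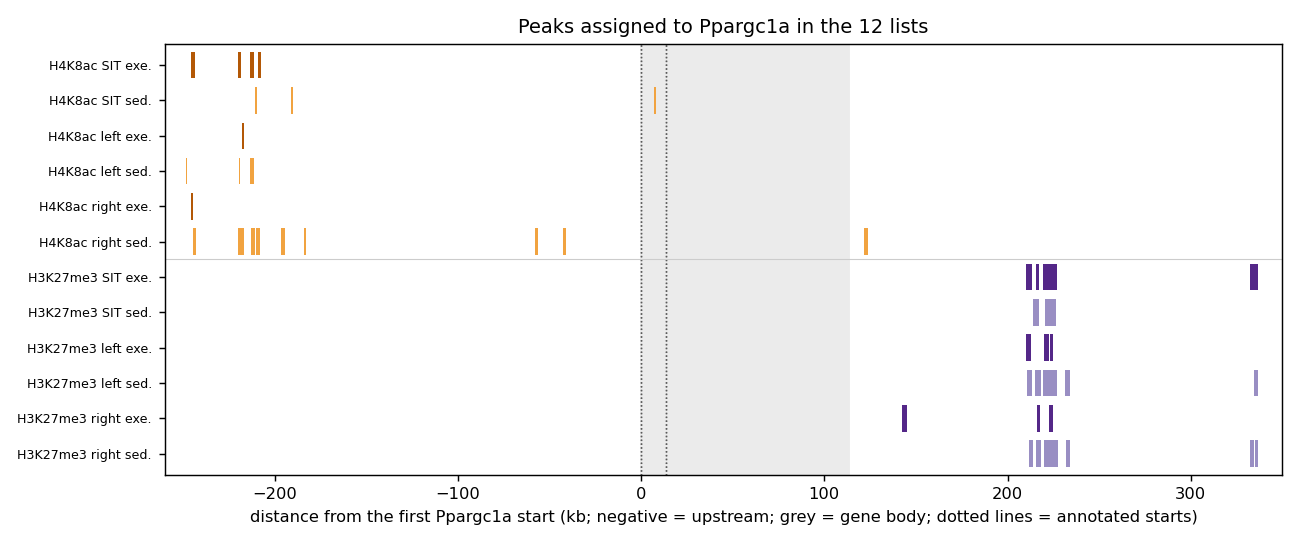
Peaks assigned to *Ppargc1a* by distance in kb from its first start (x axis, negative upstream; grey is the gene body, dotted lines annotated starts), one row per list, orange for H4K8ac and purple for H3K27me3, dark for exercised and light for sedentary. H4K8ac peaks gather 183 to 248 kb upstream of the start, and all H3K27me3 peaks lie beyond the other end of the gene.

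*Ppargc1b* encodes PGC-1β, which supports basal mitochondrial content. Its H4K8ac promoter peak was in exercised right (1077 bp) and sedentary left (1086 bp), and its lone H3K27me3 peak, 18.6 kb upstream, was in sedentary left (2166 bp). Inside the gene, H4K8ac in exercised SIT (1001 bp) and sedentary left (1467 and 867 bp) was assigned to *Mir378a*, the microRNA within its first intron, and a peak in exercised right (1430 bp, exon 3) to the neighbour *Pde6a*. *Pprc1*, for the PGC-1-related coactivator, had 1 H4K8ac peak, at its promoter in sedentary left (841 bp), and no H3K27me3 in any list.

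*Fndc5* had H4K8ac over its start in every list and no H3K27me3 in any. The promoter peak was 3980 bp in exercised SIT, 2440 bp in sedentary left, 2720 bp in exercised left and 1820 bp in exercised right. In sedentary SIT (863 and 1647 bp) and sedentary right (859 and 1691 bp) it was split into 2 peaks on chr4, the first ending at 129136376 and the second beginning at 129136665 in both lists. The joint width was 2510 bp in sedentary SIT and 2550 bp in sedentary right, so the exercised list was wider in SIT and left and narrower in right. The longest run shared by all 6 lists was 742 bp, chr4:129136665-129137406, and held the start at 129136999. Peaks elsewhere were in 1 list each: 6.21 kb upstream in sedentary left, just downstream in sedentary SIT, and 10.6 kb from the start in exercised SIT.

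Across the 10 genes, H4K8ac and H3K27me3 also differed in where their peaks fell. Promoters held 22.0% of the 59 H4K8ac peaks and 11.5% of the 323 H3K27me3 peaks, beside 23.5% and 20.3% over all peaks of these marks. *Esrrg* weighed most in the H3K27me3 share, with 15 of its 213 peaks at promoters, and *Esrrb* had 14 of 75. Distal intergenic peaks made up 47.5% of the H4K8ac peaks (28.3% over all), of which *Ppargc1a* gave 21 of 28. Introns held 44.0% of the H3K27me3 peaks (20.5% over all), of which *Esrrg* gave 112 of 142. The median distance from an H4K8ac peak of these genes to the nearest H3K27me3 peak in the matching list was 36.7 to 54.7 kb in 5 lists and 260 kb in sedentary right, where 10 of 16 peaks were those of *Ppargc1a*. Over all H4K8ac peaks it was 204 to 406 kb. Peaks of 1 gene share a neighbourhood, so these are descriptions of 10 loci and not of independent peaks.

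For the question of exercise, a gene was called gained in an arm when only the exercised list named it and lost when only the sedentary list did. Of the 7 of these genes in either H4K8ac list of SIT, *Ppard* and *Esrra* were gained and none was lost, where 27.5% of the genes in either list were gained and 10.1% lost. Of 8 on the left, *Ppara* was gained and *Ppargc1b*, *Pprc1*, *Ppard* and *Esrrb* were lost, beside 3.58% and 51.9%. Of 7 on the right, *Ppargc1b* and *Pparg* were gained and *Ppard* and *Esrrb* lost, beside 9.14% and 36.7%. So *Ppard* was gained in one arm and lost in both others, and *Ppargc1b* lost on the left and gained on the right. The *Ppard* peak lost on the left overlapped an exercised left peak that carried another symbol. *Ppargc1a*, *Esrrg* and *Fndc5* were in all 6 H4K8ac lists, 3 of 10 beside 24.1% of the 13585 genes in any list.

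For H3K27me3, *Pparg* was gained in each arm and was the only gain among the 5, 6 and 5 of these genes in either list of SIT, left and right. Of all genes in either list, 41.4% were gained in SIT, 18.5% on the left and 3.12% on the right. *Ppargc1b* was lost on the left, and no other gene of the 10 was lost, beside 1.02%, 9.13% and 43.6% in SIT, left and right. *Ppargc1a*, *Ppara*, *Esrrb* and *Esrrg* were in all 6 lists, 4 of the 6 with any H3K27me3 peak, beside 38.0% of the 7399 genes with one.

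The numbers of peaks followed the lengths of the lists. Of the H4K8ac peaks of the 10 genes, 14 were in the exercised and 10 in the sedentary SIT list, 58.3% exercised (95% exact binomial interval 36.6 to 77.9%), beside 55.7% over all peaks. On the left 4 and 10 peaks gave 28.6% (8.39 to 58.1%) beside 25.0%, and on the right 5 and 16 gave 23.8% (8.22 to 47.2%) beside 35.3%. For H3K27me3, 65 and 37 peaks in SIT gave 63.7% (53.6 to 73.0%) beside 71.4%, 59 and 49 on the left 54.6% (44.8 to 64.2%) beside 55.8%, and 45 and 68 on the right 39.8% (30.7 to 49.5%) beside 31.2%. Each interval held the share over all peaks. The intervals cover counting error alone and treat peaks of 1 gene as independent, so they are too narrow. After the same trimming by width both lists of an arm are equally long, so the share over all peaks is fixed at 50%. The H3K27me3 share was then 47.1% in SIT, 49.0% on the left and 58.4% on the right. As before trimming, it was below the share over all peaks in SIT and left and above it on the right. The H4K8ac share became 54.5% in SIT, 50% on the left and 45.5% on the right, from 8 to 22 peaks.

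**Figure D5:**
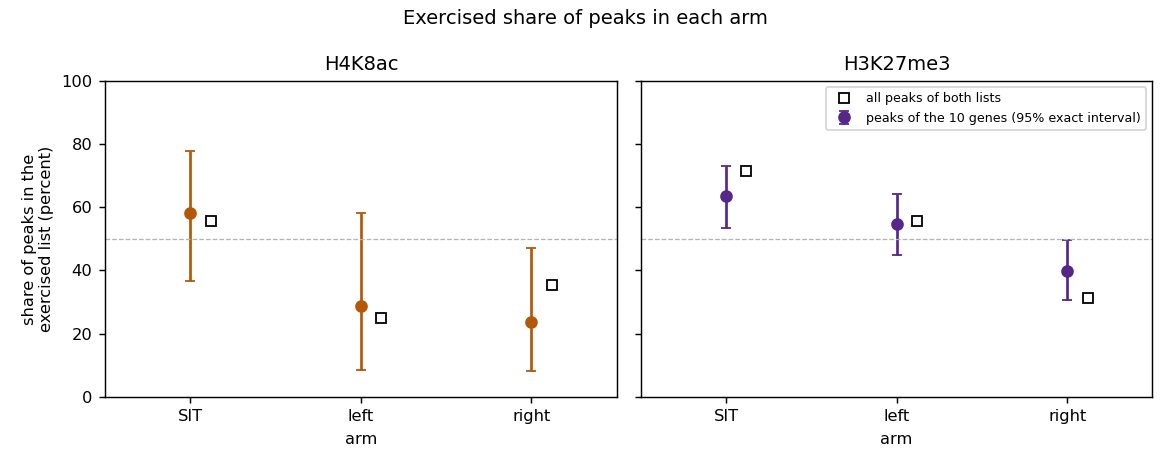
Share of peaks in the exercised list of each arm (y axis, percent of the peaks of both lists), for the peaks of the 10 genes (filled circles with 95% exact binomial intervals) and for all peaks (open squares); H4K8ac left, H3K27me3 right, and the dashed line is 50%. Each interval holds the share over all peaks of that arm.

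The surrounding pathway was described with 5 lists of genes, chosen with earlier results known and given by counts alone. For reading these counts, a single list named 30.0 to 63.2% of the 16994 genes with any peak for H4K8ac and 20.6 to 38.1% for H3K27me3, with the shares in no list as given at the start. Genes with no peak at all are outside that total but may be in the 5 lists. Of 12 upstream regulators of PGC-1, 4 to 9 had H4K8ac per list and 0 to 2 had H3K27me3. Of 12 RXR partners and coregulators, 2 to 8 had H4K8ac and 0 to 3 H3K27me3. Of 9 nuclear respiratory and mitochondrial genome factors, 1 to 5 had H4K8ac and none had H3K27me3 in any list. Of 18 fatty acid oxidation and lipid genes, 3 to 9 had H4K8ac and 1 to 4 H3K27me3, and 14 never had H3K27me3. Of 17 other nuclear receptors, 9 to 15 had H4K8ac and 6 to 8 H3K27me3.

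Gains and losses are given here of the genes of a list that were in either peak list of the arm. Fatty acid oxidation and lipid genes had 4 H4K8ac gains and 3 losses of 9 in SIT, 0 and 6 of 9 on the left and 0 and 2 of 5 on the right. Nuclear respiratory and mitochondrial genome factors had 2 and 0 of 5 in SIT, and 0 and 4 of 5 on the left and on the right. Upstream regulators had 4 and 1 of 10, 0 and 4 of 8, and 0 and 3 of 7. RXR partners and coregulators had 2 and 0 of 8, 0 and 5 of 7, and 1 and 4 of 8. The other receptors had 1 and 0 of 14, 0 and 6 of 15, and 0 and 3 of 13. Of all genes in either H4K8ac list, 27.5% were gained and 10.1% lost in SIT, 3.58% and 51.9% on the left, and 9.14% and 36.7% on the right.

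For H3K27me3 these numbers were small. None of the 5 lists had a loss in SIT or left or a gain on the right. Fatty acid oxidation and lipid genes had 2 gains of 4 in SIT, 2 of 3 on the left and 2 losses of 3 on the right. Upstream regulators had 1 gain of 2 in SIT and 1 loss of 1 on the right, RXR partners and coregulators 1 gain of 3 and 2 losses of 2, and the other receptors 1 gain of 8 and 1 loss of 7. Of all genes in either H3K27me3 list, 41.4% were gained in SIT, 18.5% were gained on the left and 43.6% were lost on the right.

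*Atf2*, a CREB-family activator, was the one gene of the 5 lists with a mark in 3 lists of a condition and none of the other: H4K8ac in 3 sedentary and 0 exercised lists, as for 0.891% of the 13585 genes with H4K8ac. Both marks were listed in the same condition and arm for 13 of the 53 genes of the 5 lists with any peak, and for 21.3% of the 16994 genes with one. *Rarb*, a retinoic acid receptor, had both in all 6 lists, and *Lpin1* (a lipid phosphatase and PGC-1α coactivator), *Rxra* (the common partner of the PPARs) and *Nr4a2* in 5. *Nr2f2* had both in 4 lists, *Esr1* in 3, and *Rora*, *Esr2* and *Pdk4*, the brake on pyruvate oxidation, in 2. *Sirt1*, *Rxrg*, *Ncoa2* and *Nr3c1* had both in 1 list.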

How the data were processed

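CUT&RUN-seq was done on hippocampal nuclei, with 60 libraries by the labels, of which 20 were IgG controls (not analysed here). Groups came from the labels. The deposited tables hold, per the file headers, positions, widths in bp, annotation classes and symbols, and no counts or signal, so the depth behind each list is not in the files (the study states only a minimum for its libraries) and each list was a pooled value with no SD. The authors aligned reads with Bowtie2 2.4.1, called peaks with SEACR (stringent) and annotated them with ChIPseeker 1.8.6 on mm10 (GRCm38), with promoters within 3 kb of a start. How libraries were combined into a list is not given in the sources used here. The number of libraries and their depth can change how many peaks pass the caller.

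The 10 genes, the pathway and marker lists and the rules were chosen with earlier results of these data known. Peaks were taken by deposited symbol. The rule for what is named was all 10 genes, regions in all 6 lists of a mark or in 3 lists of a condition and 0 of the other, the widest region of a gene, and, from the pathway lists, genes with both marks in matching lists or in 3 lists against 0. Other regions named were chosen after their values were seen. Peaks that shared at least 1 bp were chained into regions across lists. Shares have 95% exact binomial intervals (scipy 1.17.1). All 26 transcripts assigned to these genes had the same coordinates in GENCODE M21. Starts and sequences came from GENCODE M21 and RefSeq GRCm38.p6. Interval functions were tested on simulated data. The analysis ran in Python 3.11.15 with pandas 2.3.3, numpy 2.4.6 and matplotlib 3.10.9. Alternatives were the 50% of peaks with the largest width, the longer list of an arm reduced by width to the number in the shorter, promoter peaks, the gene with 3000 bp on either side, reciprocal overlap of 50% with the peak of the shortest list of the mark and bases per covered base of the list; lists left out, and the settings for single genes, were chosen after seeing the data.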

Additional observations from a re-analysis of the deposited data

Results flagged for a closer look

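The difference between exercised and sedentary lists in the number of peaks of the 10 genes changed sign between arms for both marks, which is why these values are given here. For H4K8ac, exercised minus sedentary was 4 in SIT, -6 on the left and -11 on the right. For H3K27me3 it was 28 in SIT, 10 on the left and -23 on the right. With 1 list per group the difference between arms was not tested. In each arm the sign was that of the lengths of the whole lists.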

How the results depend on the processing

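Of 50 alternative values, 34 were counted as unchanged. The criterion was a share that did not cross 50% and lay within an exact binomial interval around the main share over the same number of peaks, or a count within 1.5 times the main count. Shares that came to 50% were not treated alike. The H4K8ac share on the left at equal numbers was counted as unchanged. Those of promoter peaks, and of H3K27me3 covered bases on the right, were counted as changed. With the longer list of an arm reduced by width to the number in the shorter, the exercised share of H3K27me3 peaks crossed 50%, to 47.1% in SIT, 49.0% on the left and 58.4% on the right. At equal numbers the share over all peaks is fixed at 50%. The H3K27me3 share was below that over all peaks in SIT and left and above it on the right, as at the main setting. With promoter peaks only the exercised share was 50% in SIT and on the right for H3K27me3 and 50% on the right for H4K8ac, from few peaks. Per covered base of the list, the exercised share of covered bases crossed 50% in SIT for H3K27me3, to 46.3% from 61.8%, and on the left for H4K8ac, to 54.4% from 31.8%. It came to 50% on the right for H3K27me3, from 26.5%. Over all peaks the exercised share of covered bases was 65.2% in SIT for H3K27me3, 28.1% on the left for H4K8ac and 26.5% on the right for H3K27me3. This setting brings the share over all peaks to 50%. Pairs of gene and list with an H4K8ac peak fell from 33 of 60 to 20 with the widest 50% of each list and to 11 with promoter peaks. Regions in all lists fell from 2 to 1 for H4K8ac and from 17 to 1 for H3K27me3 when 50% reciprocal overlap with the peak of the shortest list was asked for, and to 0 and 9 with the widest 50%. Without both exercised separate lists, an alternative chosen after seeing the data, 4 H4K8ac regions were in all remaining lists. The causes were not tested. No paired analysis was possible because the peak lists used here do not separate samples, and for that reason no sample was left out. The depth behind each list is not in the files, so a gene missing from a list cannot be told apart from one below its threshold.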
